A study of Homo sapiens with 5 samples.

Results

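The p53 protein belongs to a family of 3 transcription factors and is held in check by a small set of proteins, several of them encoded by genes that p53 itself switches on. The 7 genes described here are the family members TP63 and TP73 and the feedback regulators MDM2, MDM4, PPM1D, RCHY1 and CCNG1. They were chosen by symbol, not by any measured value, and all 7 have a row in the count table of 26485 genes. RNA-seq was performed on RPE1, an immortalized human line from the retinal pigment epithelium, with no genetic change named in the labels. Cells were kept for 18 h with DMSO, the solvent (n = 2 libraries), or with doxorubicin at 0.2 μM (n = 2) or 0.34 μM (n = 1). Doxorubicin is an anthracycline that intercalates into DNA and poisons topoisomerase II, leaving DNA breaks. These are the concentrations of the treatment labels, while the treatment description gives larger values in the same unit. The comparison asks how the RNAs of these genes differed after doxorubicin, and DNA damage itself was not measured in these libraries.

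In undamaged cells, MDM2 is the ubiquitin ligase that marks p53 for destruction, and MDM4 is its relative that binds the activation domain of p53 and works with MDM2. DNA damage kinases loosen both from p53, and p53 then raises the transcription of MDM2, which closes a negative feedback loop. PPM1D encodes WIP1, the phosphatase that removes the damage marks from p53 and its kinases. RCHY1 encodes PIRH2, another ubiquitin ligase for p53, and CCNG1 encodes cyclin G1, which recruits the phosphatase PP2A to MDM2. TP63 and TP73 encode p63 and p73, which bind the same DNA motif as p53 and are best known for epithelial development and for neural and ciliated cells.

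The p53 motif is shown first for MDM2, because MDM2 has a start site inside the gene that p53 is known to use and because its RNA was the member that rose past the threshold. RefSeq start sites on GRCh38 gave 16 windows of 250 bases upstream of a start, with at least 1 window for each of the 7 genes. Each was searched for the p53 decamer consensus in 2 copies without a spacer, on both strands, with the C and the G of both cores present. Copies with bases between them, and sequence outside these windows, were not searched. In the lines that follow, capitals mark the bases of the best 20-base stretch that match the motif. The first line runs from that stretch and the bases before it up to the base before the internal start of MDM2.

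MDM2, internal start, chr12:68808903-68809016, plus strand: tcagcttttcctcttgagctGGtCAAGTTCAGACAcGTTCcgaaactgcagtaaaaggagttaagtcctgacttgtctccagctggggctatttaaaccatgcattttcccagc

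MDM2, upstream start, chr12:68807957-68807976, plus strand: ctcCgcGCCaGGcCgAGCCC

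PPM1D, chr17:60600101-60600120, plus strand: ActCcgGaTTGGtCgAGCTT

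MDM4, chr1:204516186-204516205, plus strand: tcACAAGaCCctGCAAGTCC

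TP73, second start, chr1:3690596-3690615, plus strand: GGGCAAGCTgAGGCcTGCCC

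The stretch ahead of the internal MDM2 start matched 18 of 20 bases and began 94 bases before that start. The best stretch at the upstream MDM2 start matched 12, that of PPM1D 13 and that of MDM4 15. The second TP73 start also had a stretch with 18 matches. A stretch of 18 or more matches was found in 85 of 35116 start windows of all genes, which is 0.242%. Neither the CCNG1 window that lies farther upstream nor the TP63 window held a stretch with both cores. The single TP63 window lies ahead of a start at chr3:189631389, inside the gene, which begins at chr3:189596746. Sequence ahead of the first base of TP63 was thus not searched. These matches are descriptions of the letters and carry no measurement of binding.

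The libraries held between 23773061 and 36725345 counts, and 14187 genes passed the filter on low counts, with 6 of the 7 members among them. TP73 did not pass. Levels are given as CPM, a gene's counts relative to its library's total after TMM scaling. Of 14 retinal pigment epithelium markers, 7 were too low to be tested, and RPE65, the retinoid isomerase that defines this tissue, had 8 and 3 counts in DMSO and 6, 3 and 5 after doxorubicin. None of the other 7 passed the threshold with edgeR, and 1, KRT8, passed with DESeq2, where 6.72% of all genes passed as higher. Of these 7, 4 had an unadjusted p under 0.05 with edgeR, against 30.8% of all genes tested. PMEL, 1 of the 4, passed the filter only through the doxorubicin libraries. It had 7 and 5 counts in DMSO and 22, 32 and 46 after doxorubicin. The summed level of all 14 was 639 to 784 CPM in DMSO and 1051 to 1249 CPM after doxorubicin. KRT8 and KRT18 made up most of it, with means of 357 and 282 CPM in DMSO and 653 and 436 after doxorubicin. MITF had means of 42.9 CPM in DMSO and 44.4 after doxorubicin, and OTX2 had 26.4 and 26.0. In bulk RNA, fewer cells of a type and less RNA per cell cannot be told apart. The study's methods describe the libraries as biological replicates. Neither the methods nor the labels say whether they came from separate cultures, so p-values measure only the spread between these libraries.

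MDM2 RNA rose 4.57-fold after doxorubicin (95% CI 3.15 to 6.63), and no other member passed an adjusted p of 0.01. The RNAs of PPM1D, CCNG1, RCHY1 and TP63 were higher in each doxorubicin library than in either DMSO library without passing, and MDM4 RNA overlapped between the groups. With edgeR, 4.02% of all genes tested passed, 183 (1.29%) with a higher level and 388 (2.73%) with a lower level. The groups did not overlap for 5 members, all with doxorubicin above DMSO, while 24.3% of all genes tested lay above in this way and 23.4% below. TP63 is one of the 5 and passed the filter on low counts only through the doxorubicin libraries, so nothing is read from its place in this count. With DESeq2, MDM2 and PPM1D passed, where 6.72% of genes passed with a higher level and 8.18% with a lower level. MDM2 and PPM1D also passed with edgeR at an adjusted p of 0.05, as did 6.1% of all genes with a higher level.

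**Figure D1:**
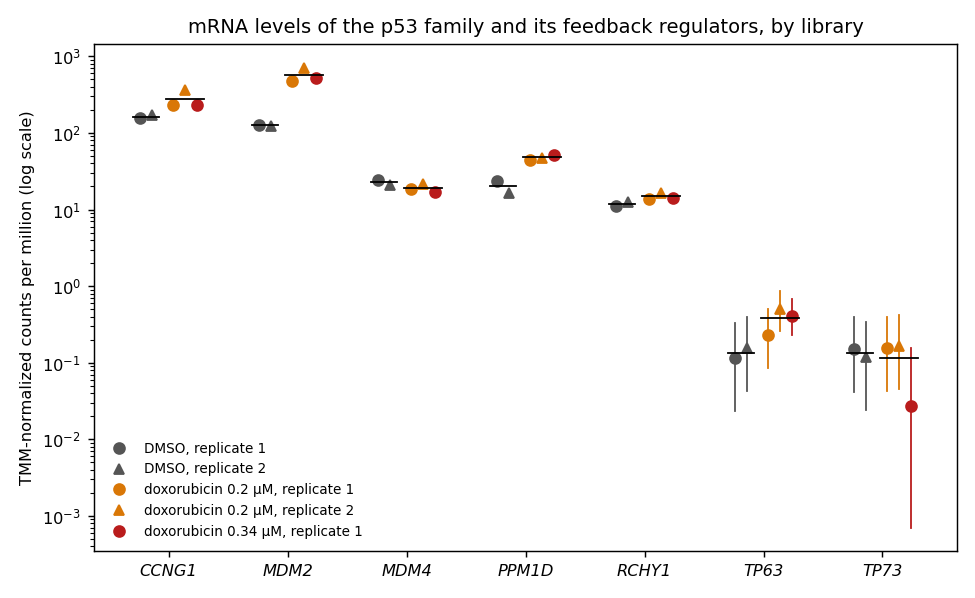
Level of each of the 7 genes in each of the 5 libraries, in TMM-scaled CPM on a log axis. Points are libraries, bars are 95% Poisson counting intervals and short lines are group means, and the MDM2 points lie at 123 to 128 CPM in DMSO and at 482 to 715 CPM after doxorubicin.

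MDM2 lies at chr12:68808172-68850686 on GRCh38. It had 3346 and 3131 counts in the DMSO libraries, 12470 and 17195 in the 0.2 μM libraries and 18771 in the 0.34 μM library. On the CPM scale the DMSO libraries stood at 128 and 123, the 0.2 μM libraries at 482 and 715, and the 0.34 μM library at 517. The doxorubicin libraries were thus all above DMSO, and the second 0.2 μM replicate was the highest. The group means were 125 ± 3.54 CPM (SD, n = 2) and 571 ± 125 CPM (SD, n = 3), a log2 fold change of 2.19 (SE 0.23, edgeR adjusted p = 0.00246). MDM2 had rank 257 by log2 fold change among the 14187 genes tested, with 1.80% of them above it. The call rested on both DMSO libraries, since without replicate 1 or replicate 2 of DMSO the edgeR adjusted p was 0.0169 or 0.0227, at log2 fold changes of 2.21 and 2.14. The carboxypeptidase M gene, which overlaps MDM2, had 177 and 69 counts in DMSO and 159, 72 and 163 after doxorubicin.

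The genes whose levels followed MDM2 most closely over the 5 libraries were TIGAR, SESN1 and WBSCR27. Likeness was measured as the root mean square difference of centred log2 CPM among 12660 genes, and it was 0.0953 for TIGAR, 0.0963 for SESN1 and 0.110 for WBSCR27. TIGAR encodes a fructose bisphosphatase that slows glycolysis, and SESN1 encodes sestrin 1, a stress protein that restrains mTORC1. Their log2 fold changes, which this choice makes similar to that of MDM2, were 2.24 for TIGAR, 2.33 for SESN1 and 2.24 for WBSCR27.

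MDM4 RNA was 0.843-fold of its DMSO level after doxorubicin, with a 95% CI of 0.622 to 1.14 that spans no change. MDM4 lies at chr1:204516406-204558120. It stood at 24.5 and 20.8 CPM in DMSO, at 18.8 and 21.6 CPM at 0.2 μM and at 17.0 CPM at 0.34 μM. The second 0.2 μM replicate lay between the DMSO libraries, and the other doxorubicin libraries lay below both. The log2 fold change was -0.25 (SE 0.18, edgeR adjusted p = 0.414).

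The ratio of MDM2 to MDM4 counts was higher in each doxorubicin library than in either DMSO library. There were 5.21 and 5.89 MDM2 counts for each MDM4 count in DMSO, 25.7 and 33.1 at 0.2 μM and 30.5 at 0.34 μM. The ratio within a library does not depend on the scaling of libraries. The log2 difference of the group means was 2.42, and the exact two-sided permutation test gave p = 0.1, which is the smallest value that 2 against 3 libraries allow. The ratio of MDM2 to CCNG1 was 0.813 and 0.719 in DMSO and 2.09, 1.97 and 2.24 after doxorubicin, so CCNG1 had the larger count in both DMSO libraries and MDM2 in all doxorubicin libraries. For MDM2 to PPM1D the ratio was 5.42 and 7.35 in DMSO, then 10.7, 15.2 and 9.92. The last 2 ratios were given no test.

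**Figure D2:**
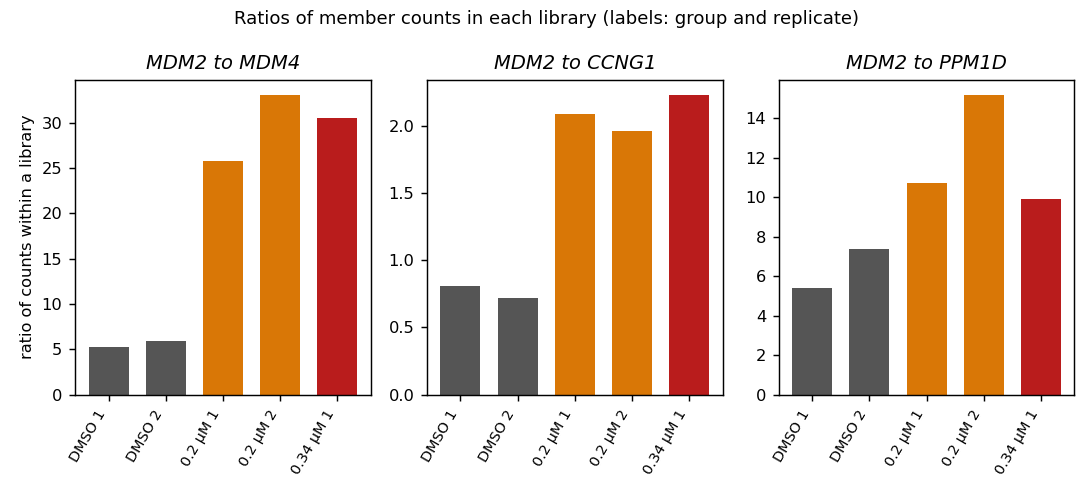
Counts of MDM2 divided by counts of MDM4, CCNG1 and PPM1D within each library, with one bar per library on axes that start at 0. In all 3 panels the doxorubicin bars stand above both DMSO bars, from 5.21 and 5.89 to between 25.7 and 33.1 for MDM4.

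PPM1D RNA was at 2.39-fold of its DMSO level after doxorubicin (95% CI 1.71 to 3.34) and lay just outside the threshold. PPM1D lies at chr17:60600193-60666280. Its level was 23.5 and 16.7 CPM in DMSO, 44.9 and 47.1 CPM at 0.2 μM and 52.2 CPM at 0.34 μM. The groups did not overlap, and the 0.34 μM library was the highest. The means were 20.1 ± 4.84 CPM (SD, n = 2) and 48.1 ± 3.71 CPM (SD, n = 3), with a log2 fold change of 1.26 (SE 0.20, edgeR adjusted p = 0.0113). DESeq2 gave an adjusted p of 5.61e-07. Among the 3 doxorubicin libraries, PPM1D was highest at 0.34 μM, as were 23.7% of all genes tested. The other 6 members were highest on the CPM scale in the second 0.2 μM replicate, as were 45.7% of all genes tested. Of these 6, TP63 had 12 counts there and 15 at 0.34 μM, and TP73 had 4 in both 0.2 μM libraries. Those counts are too low to order the libraries.

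CCNG1 was the most abundant of the 7 RNAs in DMSO on every scale used, and it was at 1.68-fold of its DMSO level after doxorubicin (95% CI 1.13 to 2.50), without passing the threshold. CCNG1 lies at chr5:163437571-163457640. Its level was 157 and 171 CPM in DMSO, 231 and 364 CPM at 0.2 μM and 231 CPM at 0.34 μM. One library, the second 0.2 μM replicate, stood apart from the other doxorubicin libraries, and all 3 stood above DMSO. The log2 fold change was 0.75 (SE 0.24, edgeR adjusted p = 0.0877), and it was 0.50 without that library. NUDCD2, whose gene overlaps that of CCNG1, had 628 and 692 counts in DMSO and 421, 316 and 465 after doxorubicin.

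RCHY1 RNA was at 1.26-fold of its DMSO level after doxorubicin (95% CI 0.927 to 1.73). RCHY1 lies at chr4:75479033-75514715. It stood at 11.1 and 12.4 CPM in DMSO, at 13.8 and 16.5 CPM at 0.2 μM and at 14.4 CPM at 0.34 μM. The lowest doxorubicin library was above the higher DMSO library, but the interval of the log2 fold change of 0.34 (SE 0.19, edgeR adjusted p = 0.276) spanned 0. THAP6, which overlaps RCHY1, had 261 and 316 counts in DMSO and 265, 364 and 424 after doxorubicin. Overlap was taken from the whole spans of the genes, and shared exons were not examined. In a stretch of exon that both genes share, reads of one cannot be told from reads of the other here. None of the sources used here gives the strand setting of the counting.

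**Figure D3:**
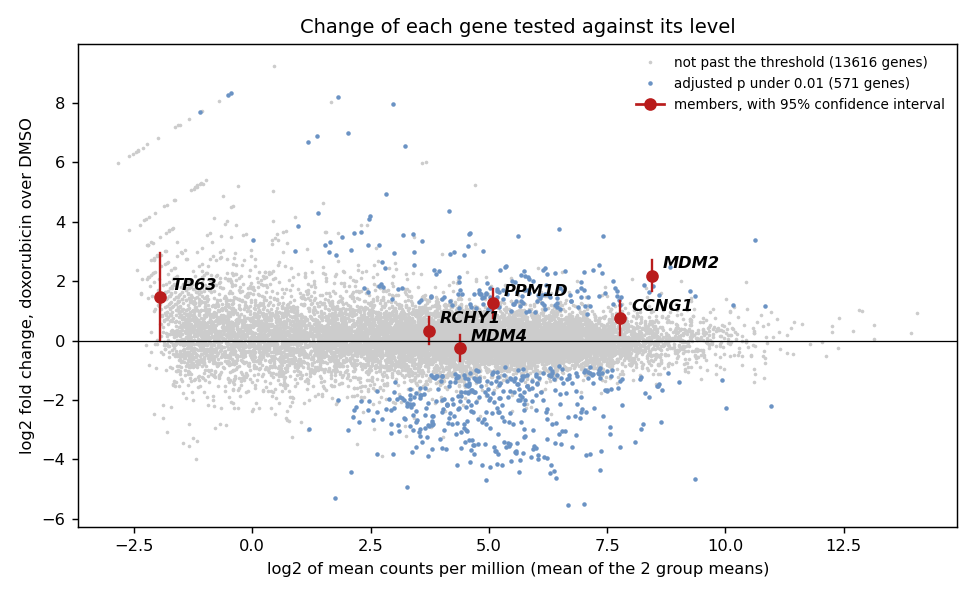
Log2 fold change of doxorubicin over DMSO against the mean level in log2 CPM for the 14187 genes tested, with the 6 tested members marked and their 95% confidence intervals drawn. MDM2 lies highest of the 6 at 2.19 and MDM4 lies lowest at -0.25, while TP63 has the widest interval.

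The other family members were near the limit of detection. TP63, at chr3:189596746-189897276, had 3 and 4 counts in DMSO, 6 and 12 at 0.2 μM and 15 at 0.34 μM. TP73, at chr1:3652516-3736201, had 4 and 3 counts in DMSO, 4 and 4 at 0.2 μM and 1 at 0.34 μM. A floor of 3 counts corresponds to 0.0827 to 0.125 CPM in these libraries, so TP63 was at or just above it in DMSO and TP73 was near or below it throughout. For TP63 the pooled counts were 7 in DMSO and 33 after doxorubicin, a ratio of CPM of 2.83 with a counting interval of 1.23 to 7.58. That interval covers counting error only. With edgeR its log2 fold change of 1.46 (SE 0.63) had an adjusted p of 0.169. For TP73 the pooled counts were 7 and 9, a ratio of 0.772 with a counting interval of 0.256 to 2.44, and a difference was not detectable at this depth.

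The p63 protein defines basal cells of stratified epithelia, and the markers of these cells differed widely in level. Of 13 such markers, 8 passed the filter, and none of these passed the threshold with edgeR. Of the 8, 3 had an unadjusted p under 0.05 with edgeR, against 30.8% of all genes. DSC3 alone passed with DESeq2, where 6.72% of all genes passed as higher. DSC3, a desmosomal cadherin, had means of 35.2 CPM in DMSO and 95.4 CPM after doxorubicin, LAMB3, a laminin chain, had 32.3 and 41.4, and ITGB4, an integrin, had 21.5 and 28.4. KRT14, the basal keratin, was at 0 counts in all 5 libraries, and KRT5, its partner, was at 0 in DMSO and at 0, 1 and 2 after doxorubicin. The summed level of the marker list was 95.5 to 119 CPM in DMSO and 184 to 209 CPM after doxorubicin. DSC3, LAMB3 and ITGB4 made up most of this sum, and DSC3 made up most of its rise. Of the 8 tested, 7 had a positive log2 fold change and 1, BNC1, a negative one, with means of 4.40 CPM in DMSO and 4.03 after doxorubicin.

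Levels were compared between genes per kilobase of exon. In DMSO the order was CCNG1 with 52.9 ± 3.10 CPM per kb (SD, n = 2), MDM2 with 15.1 ± 0.426, and then PPM1D with 2.14, MDM4 with 2.06 and RCHY1 with 1.86. The ranges of these last 3 overlapped, at 1.77 to 2.50, 1.89 to 2.22 and 1.75 to 1.96. TP73 and TP63 followed with 0.0200 and 0.0181 CPM per kb. After doxorubicin CCNG1 had 88.9 ± 24.8 CPM per kb (SD, n = 3) and MDM2 had 68.8 ± 15.1, and their ranges of 74.5 to 118 and 58.1 to 86.1 overlapped. PPM1D stood apart from the other low members with 5.11 CPM per kb, above RCHY1 with 2.35 and MDM4 with 1.74.

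The concentrations were compared in a fit of 3 conditions, where 0.34 μM had 1 library and was assumed to vary like the others. No member differed between 0.34 and 0.2 μM at an edgeR adjusted p of 0.01, nor at an unadjusted p of 0.05, nor with DESeq2, and 0% of all genes passed. The difference for MDM2 was -0.21 on the log2 scale with a 95% CI of -0.99 to 0.57, and that for PPM1D was 0.18 with a CI of -0.55 to 0.91. For CCNG1 it was -0.36 with a CI of -1.17 to 0.45. These intervals leave room for differences in either direction. The 0.34 μM library was closer to the first 0.2 μM library than the 0.2 μM replicates were to each other. The chi-square of counts per degree of freedom was 9.01 for the former pair and 75.3 for the replicates. An effect of concentration therefore cannot be told apart here from the difference between the 0.2 μM replicates. Against the same DMSO libraries, the log2 fold change of MDM2 was 2.26 at 0.2 μM (edgeR adjusted p = 0.00814) and 2.05 at 0.34 μM (edgeR adjusted p = 0.0225), where 0.275% and 0.155% of all genes passed with a higher level and 0.93% and 0.472% with a lower level. PPM1D had 1.19 at 0.2 μM and 1.37 at 0.34 μM, CCNG1 had 0.86 and 0.50, RCHY1 had 0.36 and 0.29, MDM4 had -0.17 and -0.42 and TP63 had 1.40 and 1.58. None of these others passed at either concentration.

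The p53 targets outside the family give the scale of the response. All 26 of a list of direct targets had a positive log2 fold change, with a median of 1.92 against 0.01 for all genes tested. With edgeR 19 passed as higher, against 1.29% of all genes tested. GDF15 had 2 and 5 counts in DMSO and 29, 31 and 96 after doxorubicin. It passed the filter on low counts only through the doxorubicin libraries, so nothing is read from its place in the counts of targets. The 4 largest changes that passed were those of FDXR, a mitochondrial electron carrier (log2 fold change 3.75), BTG2, an antiproliferative regulator (3.53), TP53I3, a quinone oxidoreductase (3.51), and CDKN1A, the cell cycle inhibitor p21 (3.39). Of the 26 targets, 11 had a larger log2 fold change than MDM2, 22 a larger one than PPM1D and 24 a larger one than CCNG1. All 26 exceeded RCHY1 and MDM4. The count of targets that passed was 25 with DESeq2, where 6.72% of all genes passed as higher. It was 14, 9 and 10 without the first 0.2 μM, the second 0.2 μM and the 0.34 μM library. Over all genes tested in these fits, 71 of 13957, 37 of 13989 and 38 of 13891 passed as higher. Fewer targets and fewer genes in all passed without either DMSO library. Those fits rest on a single DMSO library, so their counts of targets are not given. The list was compiled from general knowledge with earlier results of these libraries known, and its direction is not independent evidence.

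Among the other regulators of p53 and MDM2, few genes passed the threshold. Of 20 ubiquitin ligases and deubiquitinases of the axis, none passed with edgeR and the median log2 fold change was -0.29, while DESeq2 called 3 lower, DTL, HUWE1 and USP7. USP7, which removes ubiquitin from p53 and MDM2, had a log2 fold change of -0.59 with an edgeR adjusted p of 0.038. Of 15 genes of proteins that bind MDM2, none passed with edgeR (median -0.30) and DESeq2 called 2 lower, RASSF1 and MTBP. Over all genes, DESeq2 called 6.72% higher and 8.18% lower. At an unadjusted p under 0.05, edgeR counted 6 of the 20 and 7 of the 15, against 30.8% of all genes tested.

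Among 25 kinases and cofactors that set p53 activity, 1 passed as higher and 4 as lower with edgeR, against 1.29% and 2.73% of all genes tested. The median log2 fold change was -0.17. At an unadjusted p under 0.05, edgeR counted 7 of the 25, against 30.8% of all genes tested. TP53INP1, a nuclear protein that promotes p53 phosphorylation and is itself a p53 target, rose by a log2 fold change of 2.27. AURKA, the mitotic kinase Aurora A, fell by 3.66 on the log2 scale, with 2646 and 3193 counts in DMSO and 195, 280 and 278 after doxorubicin. CHEK1 and CHEK2, the checkpoint kinases, fell by 1.50 and 1.41. The other gene of the list that passed, SETD8, which encodes the histone H4 methyltransferase KMT5A, fell by 1.20. DESeq2 called 1 higher and 5 lower, PRKDC being the gene it added, against 6.72% and 8.18% of all genes. Fewer calls were made with any 1 of the 5 libraries left out, in this list and over all genes. Fits without a DMSO library rest on a single DMSO library, so their counts are not given for this list. In each fit without 1 doxorubicin library, 1 gene of the list passed as lower. The higher call was kept only in the fit without the first 0.2 μM replicate. Over all genes 207 passed without the first 0.2 μM replicate, 183 without the second and 178 without the 0.34 μM library, against 571 with all 5 libraries.

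Of 18 paralogs and protein partners of PPM1D and CCNG1, 1 passed with edgeR, against 4.02% of all genes tested, and the median log2 fold change was -0.06. At an unadjusted p under 0.05, edgeR counted 9 of the 18, against 30.8% of all genes tested. PPM1J, 1 of the 9, passed the filter only through the doxorubicin libraries. It had 4 and 9 counts in DMSO and 20, 30 and 46 after doxorubicin. DESeq2 called 1 higher, PPM1H, and 3 lower, PPM1G, PPP2R5C and PPP2R5D, against 6.72% and 8.18% of all genes. PPM1G, a phosphatase of the PPM family that acts on splicing factors, fell by 0.89 on the log2 scale (SE 0.13, edgeR adjusted p = 0.00808), whereas the log2 fold change of PPM1D was positive. The call of PPM1G was lost with any 1 of the 5 libraries left out. CCNG2, the closest relative of CCNG1, had 1289 and 986 counts in DMSO and 1285, 1581 and 1840 after doxorubicin. On the CPM scale these were 49.2 and 38.6 in DMSO and 49.7, 65.7 and 50.7 after doxorubicin, which did not overlap, and the log2 fold change of 0.33 did not pass. Of 14 regulators and partners of p63 and p73, none passed with edgeR and 6 had an unadjusted p under 0.05, against 30.8% of all genes tested, with a median log2 fold change of 0.07.

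The log2 fold changes of MDM2, PPM1D, CCNG1, RCHY1 and MDM4 kept their signs under each processing choice in the plot by setting, where PPM1D passed with DESeq2, without the filter and with the replicate block.

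**Figure D4:**
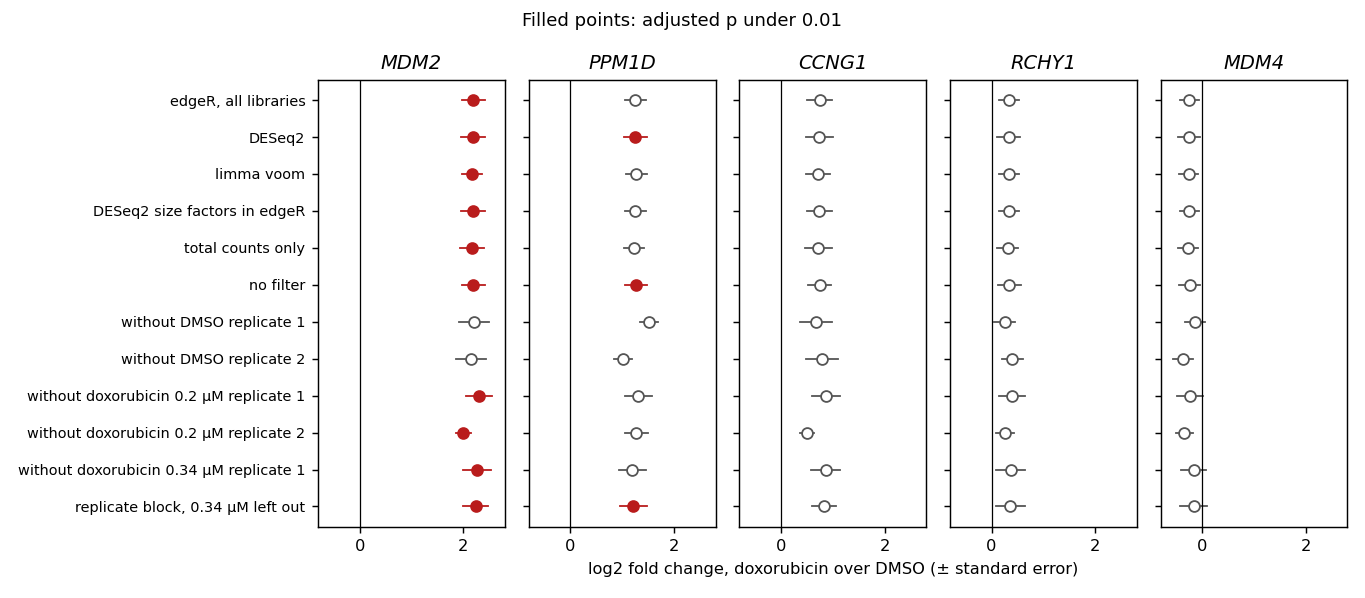
Log2 fold change of doxorubicin over DMSO with its SE for MDM2, PPM1D, CCNG1, RCHY1 and MDM4 under each of 12 ways of processing or leaving out a library. Filled points passed an adjusted p of 0.01, and MDM2 stayed between 2.00 and 2.30 and MDM4 between -0.38 and -0.13.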

How the data were processed

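The values are raw read counts per gene as the authors deposited them, from poly-A RNA mapped to hg38 with STAR and counted with featureCounts on an iGenomes annotation, per the submitters' processing notes and the study's methods. None of the sources used here gives software versions, strandedness or the handling of multi-mapping reads. A table of the authors' own comparison (mean, log2 fold change and p-values of genes under an adjusted p of 0.01) was not used.

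Testing was done with edgeR 4.0.16 in R 4.3.3 (quasi-likelihood test, TMM, minimum count 10 and minimum total 15), pooling the 3 doxorubicin libraries against 2 DMSO libraries as the study did. Genes passed at a Benjamini-Hochberg adjusted p under 0.01 over 14187 genes. DESeq2 1.42.0 and limma 3.58.1 (voom) were alternatives, as were other scalings, no filter, an adjusted p of 0.05, 0.2 μM alone, a replicate block and each library left out. Log2 CPM used a prior count of 2. Each SE was taken from the fold change and its quasi-likelihood F. The scripts were tested on simulated data. No libraries were copies of each other, since a chi-square of counts was 117 per degree of freedom in the DMSO pair, 75.3 in the 0.2 μM pair and 9.01 between the first 0.2 μM and the 0.34 μM library. These last libraries were closer to each other than the 0.2 μM replicates were, and the 3 doxorubicin libraries were still given equal weight.

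Gene positions and start windows are from RefSeq on GRCh38, and exon lengths are from a GENCODE annotation on GRCh37, joined over transcripts. Named genes were the 7 members, up to 4 genes with the largest change among those that passed in each list, and the 3 genes nearest to each member that passed. SETD8, CCNG2, LAMB3, ITGB4, PPM1J, GDF15, the genes called by DESeq2 alone, the overlapping genes and the single cell type markers were named after their values were seen. The members and lists were chosen with earlier results of these data known. A result of DESeq2 for the list of p63 and p73 partners is not reported here.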

Additional observations from a re-analysis of the deposited data

How the results depend on the processing

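MDM2 and PPM1D both passed, making 2 members in place of 1, with DESeq2, without the filter and at an adjusted p of 0.05. They also did in the fit with a replicate block, which left out the 0.34 μM library (PPM1D edgeR adjusted p = 0.00218, CCNG1 0.0156). The replicates share only a number, although the deviations of replicate 1 from 2 in DMSO and at 0.2 μM correlated across genes (r = 0.53), and genes are not independent. With each library left out in turn, 0 to 1 members passed. Neither DMSO library could be left out without losing MDM2, and its log2 fold change stayed between 2.00 and 2.30. Genes of the pathway lists that passed numbered 24, but 42 with DESeq2, 42 at an adjusted p of 0.05, 11 with 0.2 μM alone, 34 with the block and 1 to 15 with each library left out. Over all genes 571 passed, against 2073 with DESeq2, 1020 without the filter, 1927 at 0.05, 1249 with the block and 49 to 215 with a library left out, fewest without DMSO replicate 2. Without the filter the median of all genes moved from 0.01 to 0.15. The cause of these differences was not tested. Differences between 0.34 and 0.2 μM changed sign with a library left out. They ran from -0.44 to 0.10 for MDM2, from -0.17 to 0.064 for RCHY1 and from -0.62 to 0.0079 for CCNG1, each positive only without the second 0.2 μM replicate, and from -0.24 to 0.20 for TP63, negative only without the first. TP63 could not be tested without the second 0.2 μM replicate or without the 0.34 μM library, where it did not pass the filter. The MDM2 to MDM4 difference stayed between 2.33 and 2.52 with each library left out. Depth limits TP63 and TP73, whose counts were between 1 and 15.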
